A study of Homo sapiens with 6 samples.

Results

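The 9 genes IFNAR1, IFNAR2, JAK1, TYK2, STAT2, IRF1, IRF3, IRF7 and IRF9 encode receptor chains, kinases and transcription factors of interferon signalling. They were chosen by name for their role in that pathway. Each name matched 1 identifier in the deposited FPKM table (fragments scaled to gene length and library depth), and the identifiers were joined to the 6 per-library count tables, which hold 60675 genes. All 9 had counts in every library and passed the expression filter of the test.

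The RNA came from OCI-AML2, an established human acute myeloid leukaemia cell line transduced with short hairpin RNA (shRNA) constructs. It was precipitated from lysates with J2, a monoclonal antibody against double-stranded RNA, and sequenced after a directional library preparation. One group of 3 libraries is PNPT1 knockdown, against the mitochondrial exoribonuclease PNPase, and the other group of 3 is SUPV3L1 knockdown, against the helicase SUV3 that works with it. Untreated cells, cells with a control hairpin and RNA before precipitation were not analysed here, so each difference below is SUPV3L1 minus PNPT1 knockdown and says nothing of the effect of either knockdown alone. The series' design text calls the libraries of a group biological replicates. Whether they share a hairpin is not stated in the labels.

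Type I interferons bind a receptor made of the chains IFNAR1 and IFNAR2. The bound kinases TYK2 and JAK1 then phosphorylate STAT factors, among them STAT2, which joins IRF9 in ISGF3, a transcription factor complex that binds the interferon-stimulated response element (ISRE) of target genes. IRF3 and IRF7 act further upstream, where sensors of viral or mitochondrial double-stranded RNA switch them on to transcribe the interferon genes. IRF1 is a transcription factor that interferon gamma and inflammatory signals induce. IRF7 and IRF9 are themselves interferon-inducible genes.

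Counts assigned to genes ranged from 5852090 in PNPT1 knockdown replicate 3 to 11361371 in SUPV3L1 knockdown replicate 1, and replicates were numbered in accession order only. PNPT1 knockdown replicate 3 stood apart, with 16620 genes detected against 20765 to 22393 in the other libraries, and a scaling factor of 0.669 against 0.988 to 1.21. PNPT1 RNA was at 7.66, 18.9 and 17.1 CPM (counts scaled to library size, with TMM factors) after its own knockdown, against 36.3, 27.6 and 21.4 CPM after the other, without overlap. SUPV3L1 RNA was at 11.5, 18.2 and 25.8 CPM after PNPT1 knockdown, against 12.2, 12.3 and 9.42 CPM after its own, with overlap. All 10 myeloid markers examined had counts in every library, although ITGAM and MPO were low, with 2 to 198 and 10 to 75 counts. Of 18 markers of lymphoid, erythroid, platelet, epithelial and fibroblast cells, 10 had 0 counts in the 6 libraries, and the other 8 had at most 9 counts in any library.

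None of the 9 genes passed the quasi-likelihood test of edgeR with Benjamini-Hochberg adjustment over the 13275 genes tested, and the rule called 0.0% of all genes (smallest adjusted p = 0.898). None had an unadjusted p under 0.05 either, where 4.09% of all genes did, and DESeq2 called none of them and 0.108% of the 17661 genes it adjusted. The log2 fold changes ran from -0.87 for IRF1 to 1.12 for IRF7, with 3 above 0 and 6 below 0 and a median of -0.0738. Over all genes tested 50.7% lay above 0, with a median of 0.00938. The libraries of the 2 groups did not overlap for IFNAR1 and IRF7, both higher in SUPV3L1 knockdown, where 4.62% of all genes were in that position. IRF3 was lower without overlap, a position shared by 3.94% of all genes. These are levels in precipitated RNA of a bulk culture, in which a change in expression, in precipitation, in the number of cells of a kind or in RNA per cell cannot be told apart.

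**Figure D1:**
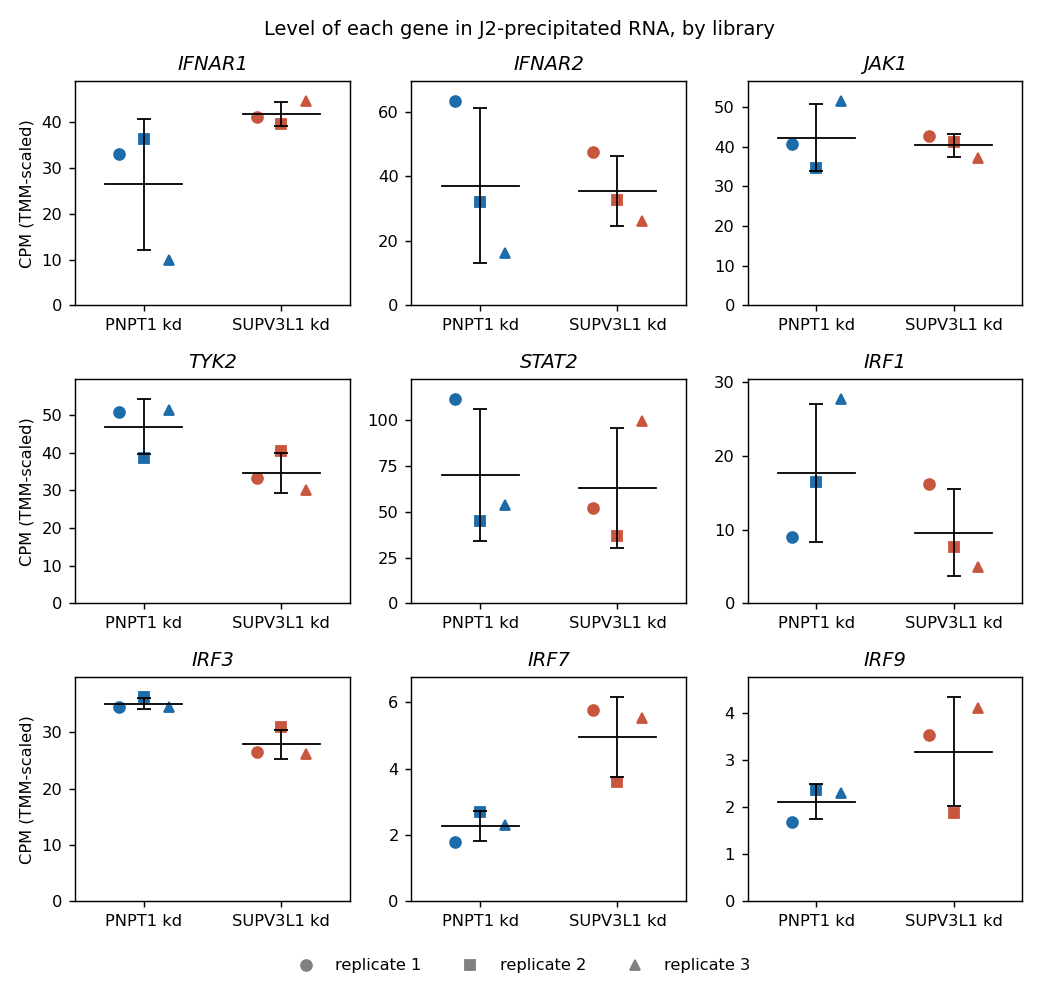
TMM-scaled CPM of the 9 genes in each library (symbols, one per replicate; kd, knockdown), with the mean (long bar) and SD (error bar) of 3 libraries per group. The groups are separate for IFNAR1, IRF7 and IRF3 and overlap for the other 6.

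Of the receptor chains, IFNAR1 (ENSG00000142166, chromosome 21, 33324477 to 33359862, plus strand) had levels of 32.9, 36.3 and 9.98 CPM after PNPT1 knockdown, against 41.2, 39.5 and 44.5 CPM after SUPV3L1 knockdown. The SUPV3L1 knockdown libraries were close together and all above the other group, in which PNPT1 knockdown replicate 3 lay far below its fellows. The log2 fold change was 0.65 ± 0.43 (SE, n = 3 per group; edgeR adjusted p = 0.898), and 0.26 without that replicate.

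IFNAR2 (ENSG00000159110, chromosome 21, 33229901 to 33265675, plus strand) had levels of 63.2, 32.1 and 16.1 CPM after PNPT1 knockdown, against 47.6, 32.5 and 26.3 CPM after SUPV3L1 knockdown. Both groups spanned a wide range, 3.92-fold from lowest to highest in PNPT1 knockdown and 1.81-fold in SUPV3L1 knockdown, and they overlapped over most of it. On the log2 scale the groups differed by -0.0738 ± 0.47 (SE; edgeR adjusted p = 0.979), and 0.54 without PNPT1 knockdown replicate 1. With replicate 3 of that group left out it was -0.43. In CPM both chains thus had their lowest level in PNPT1 knockdown replicate 3, whereas the kinases bound to them did not. In FPKM, which carries no TMM scaling, JAK1 too was lowest in that library (3.78 FPKM). TYK2 was there at the lowest FPKM of its group (3.39 FPKM).

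JAK1 (ENSG00000162434, chromosome 1, 64833229 to 64966504, minus strand), the kinase of IFNAR2, had the log2 fold change nearest to 0. Its level was at 40.6, 34.8 and 51.4 CPM after PNPT1 knockdown, against 42.7, 41.3 and 37.1 CPM after SUPV3L1 knockdown, giving a difference of -0.0627 ± 0.29 (SE; edgeR adjusted p = 0.972). The SUPV3L1 knockdown values lay inside the range of the other group, and without PNPT1 knockdown replicate 3 the difference was 0.0921. TYK2 (ENSG00000105397, chromosome 19, 10350529 to 10380676, minus strand), the kinase of IFNAR1, was at 50.9, 38.5 and 51.2 CPM after PNPT1 knockdown, against 33.3, 40.4 and 30.0 CPM after SUPV3L1 knockdown. Only SUPV3L1 knockdown replicate 2 reached into the PNPT1 knockdown range. The log2 fold change of TYK2 was -0.44 ± 0.30 (SE; edgeR adjusted p = 0.898) and stayed between -0.57 and -0.35 with any 1 library left out.

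STAT2 (ENSG00000170581, chromosome 12, 56341597 to 56360155, minus strand), which supplies the transactivation domain of ISGF3, was at 111, 44.8 and 53.7 CPM after PNPT1 knockdown, against 52.3, 37.0 and 99.8 CPM after SUPV3L1 knockdown. Each group held 1 library well above the others, PNPT1 knockdown replicate 1 and SUPV3L1 knockdown replicate 3. Its difference was -0.15 ± 0.46 on the log2 scale (SE; edgeR adjusted p = 0.960). It was 0.35 without the former and -0.65 without the latter.

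IRF9 (ENSG00000213928, chromosome 14, 24161053 to 24166565, plus strand), the DNA-binding partner in ISGF3, had levels of 1.69, 2.36 and 2.30 CPM after PNPT1 knockdown, against 3.54, 1.89 and 4.11 CPM after SUPV3L1 knockdown. SUPV3L1 knockdown replicates 1 and 3 lay above the PNPT1 knockdown range and replicate 2 inside it. On the log2 scale the difference was 0.59 ± 0.56 (SE; edgeR adjusted p = 0.899), and 0.37 without SUPV3L1 knockdown replicate 3. These values rest on 9 to 43 counts per library, and the 9 counts of PNPT1 knockdown replicate 3 have an exact Poisson 95% interval of 4.12 to 17.1 counts, which covers counting error only.

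Among the IRF factors upstream of interferon, IRF7 (ENSG00000185507, chromosome 11, 612553 to 615999, minus strand) had the largest positive difference of the 9 genes. It was at 1.79, 2.71 and 2.30 CPM after PNPT1 knockdown, against 5.76, 3.58 and 5.52 CPM after SUPV3L1 knockdown. The lowest SUPV3L1 knockdown library, replicate 2, was still above the highest PNPT1 knockdown library. Its log2 fold change was 1.12 ± 0.52 (SE; edgeR adjusted p = 0.898), and 0.97 to 1.30 with any 1 library left out. The counts behind it were 18, 31 and 9 in PNPT1 knockdown and 70, 38 and 51 in SUPV3L1 knockdown. The exact Poisson 95% intervals of the nearest libraries, 1.84 to 3.84 CPM for PNPT1 knockdown replicate 2 and 2.54 to 4.92 CPM for SUPV3L1 knockdown replicate 2, overlap.

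IRF3 (ENSG00000126456, chromosome 19, 49659569 to 49665875, minus strand), the constitutive partner of IRF7, was at 34.5, 36.2 and 34.5 CPM after PNPT1 knockdown, against 26.5, 30.9 and 26.2 CPM after SUPV3L1 knockdown. Within each group the libraries were close together, with the highest 1.05-fold and 1.18-fold above the lowest, and all 3 SUPV3L1 knockdown libraries were below all 3 of the other group. Its log2 fold change was small, -0.33 ± 0.28 (SE; edgeR adjusted p = 0.898), and lay between -0.42 and -0.29 without each library in turn. In FPKM the groups of IRF3 overlapped.

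IRF1 (ENSG00000125347, chromosome 5, 132481609 to 132490798, minus strand) had the largest negative difference. It was at 9.06, 16.4 and 27.6 CPM after PNPT1 knockdown, against 16.2, 7.64 and 4.87 CPM after SUPV3L1 knockdown. The groups overlapped, and the highest CPM belonged to PNPT1 knockdown replicate 3, the library in which both receptor chains were lowest. In FPKM the highest value of IRF1 was in PNPT1 knockdown replicate 2 (1.83, against 1.60 in replicate 3). For IRF1 the log2 fold change was -0.87 ± 0.54 (SE; edgeR adjusted p = 0.898). It was -0.41 without PNPT1 knockdown replicate 3, -0.55 without SUPV3L1 knockdown replicate 3 and -1.49 without SUPV3L1 knockdown replicate 1.

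**Figure D2:**
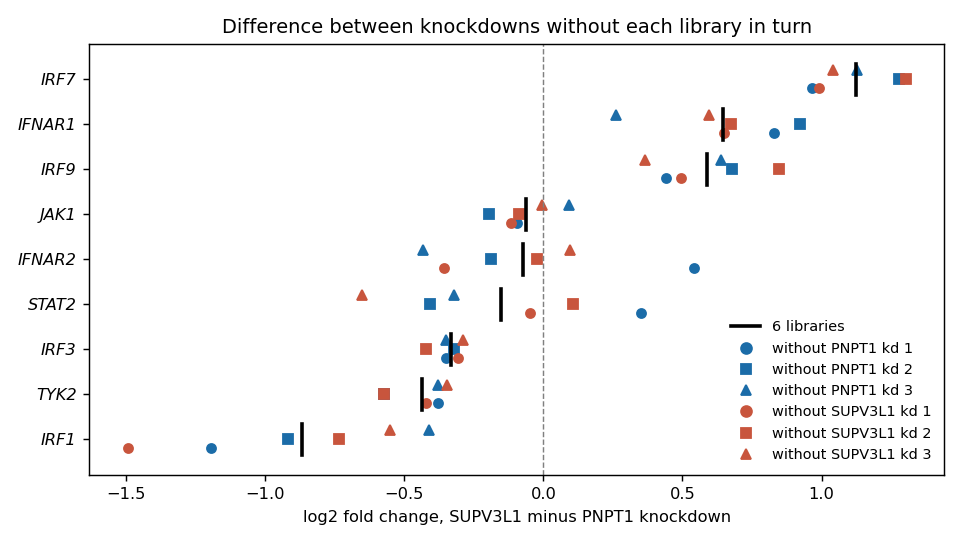
Log2 fold change (SUPV3L1 minus PNPT1 knockdown) of the 9 genes from edgeR with the 6 libraries (black bar) and with each library left out in turn (coloured symbols; kd, knockdown). IRF7, IFNAR1 and IRF9 stay above 0 and IRF3, TYK2 and IRF1 below 0, whereas JAK1, IFNAR2 and STAT2 fall on both sides.

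The deposited FPKM values give the levels per gene length and so allow the genes to be compared with each other. Ordered by the mean of the 6 libraries, STAT2 was at 8.27 ± 4.86 FPKM and IFNAR2 at 7.64 ± 4.29 FPKM (SD, n = 6), with neither above the other in more than 3 libraries. IRF3 at 5.54 ± 1.70, JAK1 at 4.68 ± 0.639, TYK2 at 4.22 ± 1.15 and IFNAR1 at 4.13 ± 1.70 FPKM (SD, n = 6) followed within one another's spread. IRF9 at 1.88 ± 1.04, IRF1 at 1.22 ± 0.541 and IRF7 at 1.01 ± 0.518 FPKM (SD, n = 6) were lowest. Within the groups these last genes stood in other orders, IRF1 having the highest mean of them in PNPT1 knockdown (1.48 FPKM) and the lowest in SUPV3L1 knockdown (0.958 FPKM). The ranges of every pair of neighbours in this order overlapped. The wide step was between IFNAR1 and IRF9, with IFNAR1 above IRF9 in 5 of 6 libraries and below it in PNPT1 knockdown replicate 3.

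**Figure D3:**
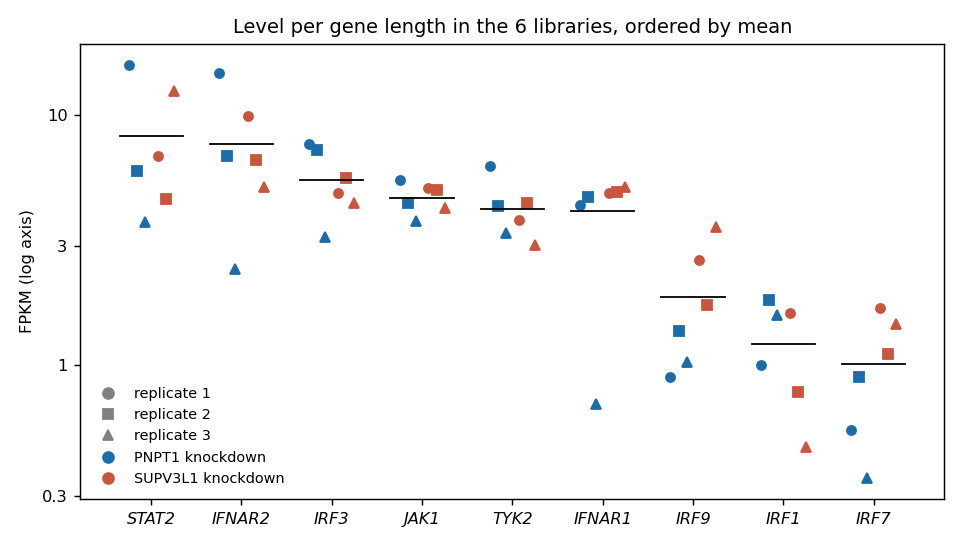
Deposited FPKM of the 9 genes (log axis) in the 3 PNPT1 knockdown and 3 SUPV3L1 knockdown libraries, ordered by the mean of 6 libraries (black bar). STAT2, IFNAR2, IRF3, JAK1, TYK2 and IFNAR1 have means of 4.13 to 8.27 FPKM, and IRF9, IRF1 and IRF7 means of 1.01 to 1.88 FPKM.

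Ratios of FPKM within a library compare the levels of partners in the precipitated RNA. IRF3 was 14.0, 8.05 and 9.20 times IRF7 after PNPT1 knockdown, against 2.88, 5.06 and 3.05 times after SUPV3L1 knockdown. IFNAR2 was 3.40, 1.47 and 3.45 times IFNAR1 in PNPT1 knockdown and 2.04, 1.34 and 0.998 times in SUPV3L1 knockdown. The first ratio separated the groups and the second did not. STAT2 was 17.8, 4.36 and 3.62 times IRF9 in PNPT1 knockdown and 2.60, 2.65 and 3.49 times in SUPV3L1 knockdown. JAK1 was 0.876, 1.03 and 1.11 times TYK2 in PNPT1 knockdown and 1.34, 1.12 and 1.40 times in SUPV3L1 knockdown. Both of these ratios separated the groups too, by a narrow gap between the nearest libraries. These ratios were formed from genes already described and were not tested. IRF7 and IRF9 separate the groups in FPKM by themselves. How many other gene pairs would separate the groups was not determined.

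FPKM gave a larger difference than counts for IRF9. It was at 0.895, 1.38 and 1.03 FPKM in PNPT1 knockdown and at 2.64, 1.74 and 3.58 FPKM in SUPV3L1 knockdown, without overlap, and its log2 fold change on the log2(FPKM + 0.1) scale was 1.16 against 0.59 from counts. IRF7 was at 0.552, 0.900 and 0.354 FPKM in PNPT1 knockdown and at 1.70, 1.11 and 1.47 FPKM in SUPV3L1 knockdown, again without overlap. IFNAR1 was the third gene without overlap in FPKM. All 3 were higher in SUPV3L1 knockdown, a position held by 3.22% of all genes on this scale, and none of the 9 passed limma (adjusted p 0.966 or more). FPKM carries no TMM scaling, and the median log2 fold change of all genes on it was 0.171, so IFNAR2 at 0.14, JAK1 at 0.0733 and STAT2 at 0.0459 lay below that median although above 0.

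**Figure D4:**
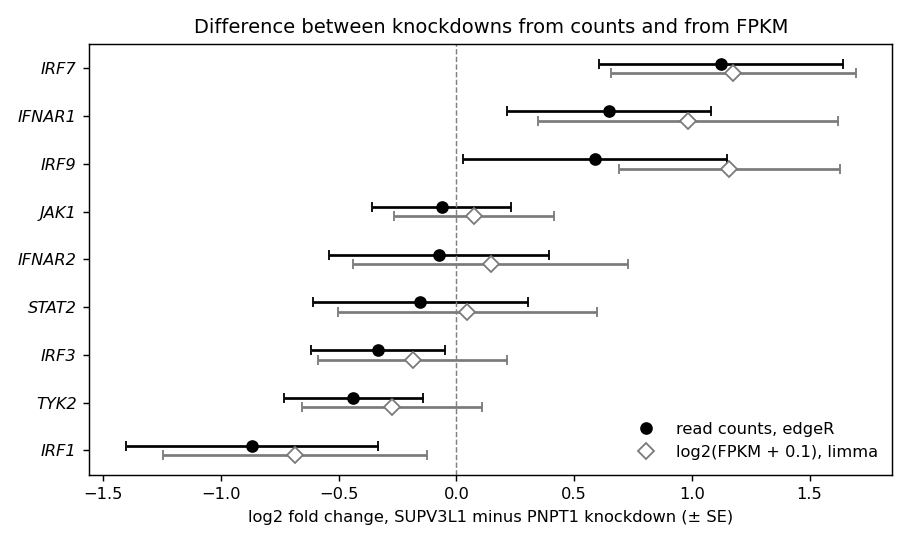
Log2 fold change ± SE of the 9 genes from read counts (edgeR, filled circles) and from log2(FPKM + 0.1) (limma, open diamonds), 3 libraries per group. The scales differ most for IRF9, at 0.59 from counts and 1.16 from FPKM.

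Several of the 9 genes share exonic bases with other genes in GENCODE 29 on GRCh38, and reads there may be split or left uncounted. IRF9 shares 48.4% of its exonic bases with AL136295.5, a gene on the same strand that runs through it and had 5, 10 and 1 counts in PNPT1 knockdown and 18, 11 and 8 in SUPV3L1 knockdown. IFNAR2 shares 44.2% with AP000295.1 on its own strand, which had 0 counts in the 6 libraries, and 39.1% with IL10RB-DT on the opposite strand, which had 3 to 34 counts.

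IRF3 shares 19.4% of its exonic bases with BCL2L12 on the opposite strand, which had 78 to 198 counts. IRF1 shares 22.0% with opposite-strand genes, mainly C5orf56, which had 17 to 112 counts. The labels do not state the strand setting of the counting, so it is not known whether reads from these genes and their opposite-strand partners were told apart. JAK1 shares 0.0633% of its exonic bases, and IFNAR1, TYK2, STAT2 and IRF7 share none. The part of this overlap in the values of IRF9, IFNAR2, IRF3 and IRF1 was not tested. The labels do not state which annotation was counted.

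Windows of 300 bases around the start sites, 250 before and 50 after, were available from RefSeq (GRCh38.p14) for 6 of the 9 genes, 9 windows in all. They were searched on both strands for the core of the ISRE (GAAANNGAAA), to which ISGF3 and IRF factors bind, and for the GAS element (TTCNNNGAA), to which STAT dimers bind. None of the 9 windows held the ISRE core and 2 held a GAS element, in IRF1 and IRF9. Of all 35116 windows, 3.57% and 7.66% held the respective motif. IFNAR2, IRF3 and IRF7 had no window, so their promoters were not searched. For comparison, the ISRE core is shown for 4 other pathway genes named below. Capitals mark the motif, each 30-base stretch is written 5′ to 3′ on the strand of the gene, and adjacent matches can overlap in other genes.

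IRF1 (GAS, chr5:132490879-132490908, minus strand): aacagcctgatTTCCCCGAAatgacggcac

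IRF9 (GAS, chr14:24161191-24161220, plus strand): gaccacgtgatTTCTGGGAAaaggccctcc

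MYD88 (ISRE core, chr3:38138590-38138619, plus strand): gcgcttctcgGAAAGCGAAAgccggcgggg

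IFI44L (ISRE core, chr1:78620365-78620394, plus strand): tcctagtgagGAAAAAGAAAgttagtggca

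IFIT5 (ISRE core read on the opposite strand, chr10:89414513-89414542, plus strand): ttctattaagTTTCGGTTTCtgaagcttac

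PARP14 (ISRE core, chr3:122680800-122680829, plus strand): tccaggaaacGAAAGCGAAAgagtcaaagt

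IRF1 and IRF9, the members with a GAS match, had log2 fold changes of opposite sign (-0.87 and 0.59). A match of letters describes the sequence and is not evidence of binding in these cells.

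The 9 genes were compared by their pattern over the libraries. The distance between 2 genes was taken as the mean absolute difference of their log2 CPM, each centred on its own mean over the 6 libraries. It is also small between genes that each vary little, so it does not show whether genes vary together. TYK2 and IRF3 were the closest pair, at 0.149, followed by JAK1 and TYK2 at 0.195 and JAK1 and IRF3 at 0.203. IRF7 and IRF9, the members with the lowest counts, were next at 0.279. IRF1, which interferon gamma induces, lay at 0.976 from IRF7 and at 0.701 from IRF9. The widest distances were those of IRF1 from STAT2 and from IFNAR1, both at 1.05.

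The gene most like each member over the 6 libraries was sought among the other genes with a mean of 50 counts or more (9736 or 9737 genes), so that closeness follows from the choice. By this rule the nearest were LINC01184 for IFNAR1 (0.0593), TGFBR2 for IFNAR2 (0.126), GSTK1 for JAK1 (0.0434) and MED12 for TYK2 (0.0605). They were C19orf54 for STAT2 (0.0783), HIST1H4I for IRF1 (0.117), LIG3 for IRF3 (0.0432), BST1 for IRF7 (0.135) and MINPP1 for IRF9 (0.145). The median gene lay at 0.368 to 0.760 from these members. LINC01184, a noncoding RNA, shared the drop of IFNAR1 in PNPT1 knockdown replicate 3, at 9.75, 10.1 and 3.07 CPM against 12.5, 12.9 and 13.2 CPM in SUPV3L1 knockdown. TGFBR2, another cell surface receptor, followed IFNAR2, at 27.5, 16.4 and 9.47 CPM against 23.0, 17.1 and 15.4 CPM. BST1, a myeloid surface enzyme, was at 12.0, 16.7 and 14.6 CPM after PNPT1 knockdown, against 24.6, 20.7 and 33.1 CPM after SUPV3L1 knockdown, separating the groups as IRF7 did.

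The rest of the pathway was described from fixed lists, of which no gene passed edgeR's test. Interferon genes themselves were all but undetected: 19 of 21 ligand genes had 0 counts in the 6 libraries, and IFNA5 and IFNL2 had 1 count in 1 library each. A count of 0 allows up to 0.247 CPM in SUPV3L1 knockdown replicate 1 and up to 0.768 CPM in PNPT1 knockdown replicate 3 (3 counts). IFNB1, the gene that IRF3 and IRF7 are best known to switch on, was among those at 0.

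Of the receptors for interferons gamma and lambda, 3 of 4 genes were tested; the median log2 fold change was -0.00783, with 1 above 0 and 2 below. IFNGR1 was at 67.2 ± 25.1 CPM in PNPT1 knockdown and at 66.8 ± 26.5 CPM in SUPV3L1 knockdown, and IL10RB at 37.1 ± 10.5 and 34.8 ± 4.35 CPM (SD, n = 3). IFNGR2 was at 14.5, 15.8 and 20.5 CPM against 35.4, 15.8 and 15.6 CPM, with 1 high library, SUPV3L1 knockdown replicate 1. Without it the log2 fold change of IFNGR2 was -0.11 in place of 0.40.

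In the list of other JAK kinases and STAT factors 7 of 8 genes were tested, and the median was -0.11 with 3 above 0 and 4 below. JAK2, the kinase of the interferon gamma receptor, differed by -0.59 ± 0.37 on the log2 scale (SE), and by -0.19 without PNPT1 knockdown replicate 1. For STAT6, which interleukin 4 activates, the difference was 0.48 ± 0.35 on that scale (SE). It was 0.20 with PNPT1 knockdown replicate 3 left out.

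Among the other IRF factors, IRF8 showed the clearest separation. IRF8, a factor of monocyte and dendritic cell development, was at 46.8, 55.7 and 33.5 CPM after PNPT1 knockdown, against 96.9, 94.0 and 91.0 CPM after SUPV3L1 knockdown. All 3 SUPV3L1 knockdown libraries were close together and above the other group. Its difference was 1.05 ± 0.30 on the log2 scale (SE; edgeR adjusted p = 0.898), and 0.87 to 1.21 without each library in turn. IRF2 and IRF5 had log2 fold changes of -0.33 ± 0.42 and -0.11 ± 0.52 (SE), which were 0.19 and 0.54 without PNPT1 knockdown replicate 1. The 10 myeloid markers, measured beside these factors, had a summed level of 875 to 1138 CPM in PNPT1 knockdown and 599 to 1055 CPM in SUPV3L1 knockdown, and 9 of the 10 had log2 fold changes above 0 (median 0.23). AZU1, the exception at -0.49, had the highest level of the 10, at 383, 524 and 785 CPM against 161, 574 and 473 CPM. CD33 and SPI1 were higher in SUPV3L1 knockdown without overlap in CPM, a position held by 4.62% of all genes. The part of the 10 markers in the IRF8 and IRF7 values was not tested.

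For the adaptors and kinases that switch on IRF3 and IRF7 the median was 0.19, with 7 of 11 above 0. MYD88, the adaptor of Toll-like receptors that leads to IRF7, was at 10.7, 9.95 and 7.42 CPM after PNPT1 knockdown, against 25.0, 23.3 and 17.1 CPM after SUPV3L1 knockdown, without overlap. Its log2 fold change was 1.21 ± 0.35 (SE; edgeR adjusted p = 0.898), and 1.07 to 1.35 without each library. IRF8 and MYD88 had an unadjusted edgeR p under 0.05 with the higher level in SUPV3L1 knockdown, as had 1.7% of all genes. So had 3 of the 15 tested ISGF3 targets described below, IFI6, IFI44L and IFIT5. MAVS, the mitochondrial adaptor of the RNA sensors RIG-I and MDA5, was at 88.5, 120 and 30.5 CPM against 71.3, 127 and 74.2 CPM. Its difference, 0.19, was -0.20 without PNPT1 knockdown replicate 3. For TMEM173 (STING) the log2 fold change was 0.51 ± 0.38, for TRAF3 0.70 ± 0.40 and for TRAF6 -0.61 ± 0.38 (SE). Without PNPT1 knockdown replicate 3 TMEM173 was at 0.27 and TRAF6 at -0.39 on this scale. TMEM173 was at 0.23 without SUPV3L1 knockdown replicate 2, and TRAF3 at 1.18 without PNPT1 knockdown replicate 2.

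Inhibitors of the pathway had a median of -0.18, with 3 of 10 tested genes above 0. USP18, an interferon-inducible inhibitor that binds IFNAR2, was at 1.09, 1.05 and 1.02 CPM after PNPT1 knockdown, against 1.73, 2.07 and 2.38 CPM after SUPV3L1 knockdown. The groups were separate at this low level, and the log2 fold change was 0.95 ± 0.57 (SE; edgeR adjusted p = 0.898). The phosphatase PTPN6 had one of -0.46 ± 0.36 (SE), which was -0.25 without PNPT1 knockdown replicate 1 and -0.79 without SUPV3L1 knockdown replicate 1. PTPN11 had one of -0.00448 ± 0.29 (SE). SOCS3 was at 0.299, 0.0873 and 1.79 CPM against 2.88, 0 and 2.60 CPM, with a library at 0 counts in the group of the higher mean.

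Target genes of ISGF3 had the highest median of the fixed pathway lists, 0.73, with 14 of 15 tested genes above 0. Of all genes tested 50.7% lay above 0, with a median of 0.00938. In CPM 2 of the 15 were higher in SUPV3L1 knockdown without overlap, as were 4.62% of all genes. The other 6 of the 21, IFIT1, IFIT2, OAS1, IFI27, IFITM1 and IFITM3, did not pass the filter, with 0 to 13 counts in PNPT1 knockdown and 0 to 106 in SUPV3L1 knockdown. IFI44L was at 0.896, 2.62 and 1.02 CPM after PNPT1 knockdown, against 8.14, 1.79 and 6.71 CPM after SUPV3L1 knockdown. IFIT5, which binds RNA ends, was at 1.09, 1.57 and 0.256 CPM against 2.80, 2.36 and 4.55 CPM, the only one of the 3 genes with the smallest p in this list whose groups did not overlap in CPM. PARP14 was at 71.4, 62.9 and 29.4 CPM against 100, 50.3 and 99.0 CPM. IFI6, a mitochondrial protein, was at 13.3, 8.38 and 18.7 CPM against 41.5, 8.77 and 217 CPM, and its log2 fold change of 2.74 ± 0.90 (SE; edgeR adjusted p = 0.898) was 0.92 without SUPV3L1 knockdown replicate 3. Without the expression filter edgeR called IFI6 (adjusted p = 2.42e-08), a setting that called 187 of 28015 genes against 0 of 13275 in the main test.

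The mean log2 CPM of the 15 tested targets was 2.38, 2.43 and 1.67 after PNPT1 knockdown, against 3.44, 2.21 and 3.70 after SUPV3L1 knockdown. SUPV3L1 knockdown replicates 1 and 3 were thus above the other group and replicate 2 inside it. IRF9 had this same order of libraries against the PNPT1 knockdown range, and IRF7 was also lowest in replicate 2 within its group, while STAT2 was high in replicate 3 and not in replicate 1. In IRF9, IRF7 and STAT2 alike, SUPV3L1 knockdown replicate 2 was the lowest of its group, as it was in IFNAR1 (39.5 CPM). Within PNPT1 knockdown the order was not shared in CPM. There the targets were lowest in replicate 3, IRF9 and IRF7 in replicate 1, and STAT2 in replicate 2. In FPKM, which carries no TMM scaling, IRF7 (0.354 FPKM) and STAT2 (3.74 FPKM) were lowest of that group in replicate 3. IRF9 was lowest in replicate 1 (0.895 FPKM).

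**Figure D5:**
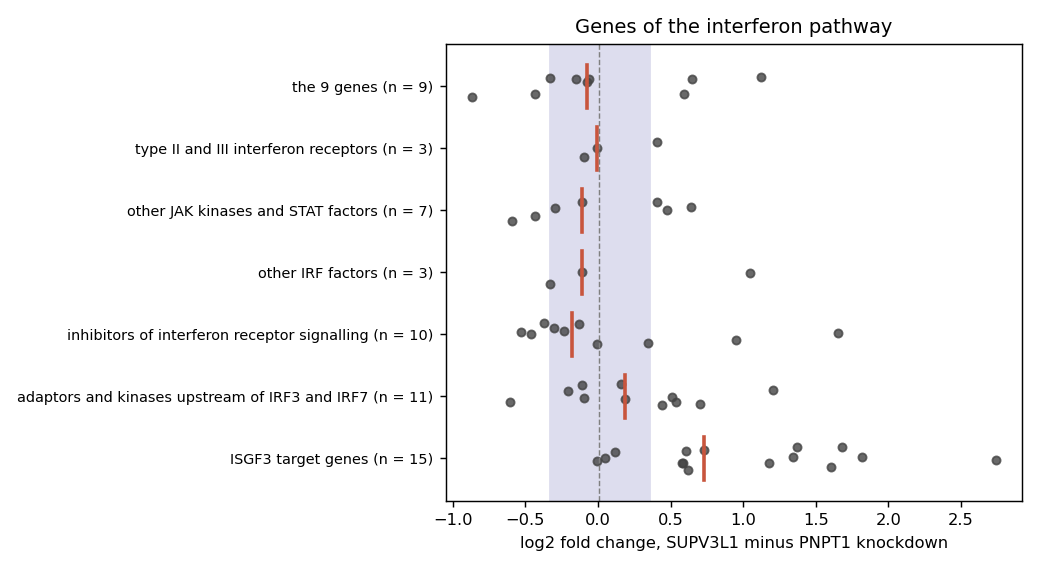
Log2 fold change (SUPV3L1 minus PNPT1 knockdown, edgeR) of each tested gene (points) of the 9 genes and of the fixed pathway lists, with the median of each list (red bar). The shaded band holds the middle 50% of all genes tested, -0.33 to 0.36, and the ISGF3 targets have a median of 0.73 against -0.0738 for the 9 genes.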

How the data were processed

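Double-stranded RNA precipitated with the J2 antibody was sequenced in 6 libraries, 3 per knockdown. The submitters' processing notes name GRCh38 with HTSeq, StringTie 2.1.4, HISAT2 2.2.1 and SAMtools 1.14. The authors deposited raw read counts per gene for each library and 1 table of FPKM values. The HTSeq strand setting, the annotation and the tool behind the FPKM are not stated there. Alignments that were not unique, 65.7% to 80.1% of the entries, gave no counts, and 7.06% to 16.0% were assigned to a gene. The 5 summary lines were left out.

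The main test of counts was the quasi-likelihood test of edgeR 4.0.16 (R 4.3.3, TMM scaling, default filter with a minimum count of 10 and total of 15) on all genes, with Benjamini-Hochberg adjustment and a threshold of 0.05. FPKM was tested as log2(FPKM + 0.1) with limma 3.58.1. SEs were derived from the fold change and the F statistic. DESeq2 1.42.0, other scalings, filters, FPKM pseudocounts and leaving out each library were alternatives. The procedure was checked on simulated data. P-values measure the spread between these libraries only, and no libraries are paired.

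The 9 genes, the pathway and marker lists and the tests were chosen with earlier results of these data known. Genes named are the 9, the knocked-down genes, from each list the 3 with the smallest p and the 2 with the highest level, the nearest gene to each of the 9 and genes overlapping them. Positions come from GENCODE 29, which holds 57055 of the 60675 identifiers. Some genes of these lists are not reported here.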

Additional observations from a re-analysis of the deposited data

How the results depend on the processing

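The call of 0 among the 9 genes held under all 15 alternatives. Over all genes 0 were called in the analysis as reported (543 at an unadjusted p under 0.05), 19 by DESeq2, 187 by edgeR without the expression filter, and 0 to 1 when each library was left out. The log2 fold changes of IFNAR1, TYK2, IRF1, IRF3, IRF7 and IRF9 kept their sign under every alternative that tested them; IRF7 and IRF9 fell below the strict filter of 50 counts. Those of JAK1, IFNAR2 and STAT2 did not. JAK1 was 0.00412 with upper-quartile factors, 0.0564 with library totals only, 0.0733 and 0.0600 on FPKM with pseudocounts of 0.1 and 1, and -0.20 to 0.0921 without each library. IFNAR2 was 0.14 and 0.0889 on FPKM (same pseudocounts) and -0.43 to 0.54 without each library. STAT2 was 0.0459 and 0.0279 on FPKM and -0.65 to 0.35 without each library. The cause was not tested.

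Among other named genes, IFNGR1 was 0.0521 with upper-quartile factors, 0.0310 with library totals, 0.00280 without a filter, 0.0128 with the strict filter, 0.17 and 0.16 on FPKM, and -0.26 to 0.30 without each library. PTPN11 was 0.0505, 0.0881, 0.0171, 0.0115, 0.0744 and 0.0677 under the same 6 settings, and -0.14 to 0.10 without each library. IRF5 was 0.20 and 0.0546 on FPKM and -0.43 to 0.54 without each library. Without each library IFNGR2 ranged from -0.11 to 0.61, IL10RB from -0.32 to 0.0404, IRF2 from -0.58 to 0.19 and MAVS from -0.20 to 0.59. The cause was not tested. No paired analysis was possible because the labels give no replicate number shared between the groups. Among the 9 genes IRF7 and IRF9 had the lowest counts, with as few as 9 in a library.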
